A study of Mus musculus with 75 samples.

Results

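The subject is the choroid plexus of young mice joined to an old partner, compared with the choroid plexus of young mice joined to a young partner. Parabiosis is the surgical union of a pair of animals, after which both share 1 circulation. The 6 libraries, of 75 samples in the series, were chosen from their labels. They hold 3 young heterochronic parabionts (mice aged 3 months with an old partner, animals 9, 11 and 14) and 3 young isochronic parabionts (mice aged 3 months with a partner of their own age, animals 1, 3 and 5). The other parabionts of the same table were 3 old isochronic mice (aged 22 months with a partner of their own age, animals 19, 21 and 23) and 2 old heterochronic mice (aged 22 months with a young partner, animals 29 and 34). Choroid plexus of 3 aged mice (22 months) and 3 young mice (3 months) that were not joined was used to choose a list of genes. All were C57BL/6 mice perfused with PBS before dissection. The labels do not say which parabionts were joined to each other, and how long the pairs were joined is not given in the sources used here. Each library is labelled as 1 numbered animal.

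The choroid plexus is a fold of secretory epithelium around fenestrated capillaries in each brain ventricle. Its epithelium makes the cerebrospinal fluid and, through tight junctions, holds blood-borne molecules and cells back from it. The stroma between capillaries and epithelium holds macrophages, dendritic cells, mural cells and fibroblasts. Blood factors reach this stroma through the leaky capillaries, so the tissue is exposed to the partner's plasma. Type I interferons and interferon gamma bind separate receptors at the cell surface, and both switch on sets of antiviral and antigen-presenting genes. In this study the question was what the age of the blood does to the choroid plexus, with the interferon genes of most interest.

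Promoters of 3 interferon genes are shown because the comparison turns on whether such genes differed with an old partner. Each line gives the 120 bases that end at the gene's start in RefSeq (GRCm38.p6). Capitals mark the core of the interferon-stimulated response element (GAAANNGAAA on either strand, found before many genes that type I interferon induces) and the gamma-activated site (TTCNNNGAA, found before many genes that interferon gamma induces). Isg15 lies on the minus strand at chr4:156200819-156200938, Ifit1 on the plus strand at chr19:34640769-34640888 and Igtp on the plus strand at chr11:58199436-58199555. Matches may overlap each other.
Isg15: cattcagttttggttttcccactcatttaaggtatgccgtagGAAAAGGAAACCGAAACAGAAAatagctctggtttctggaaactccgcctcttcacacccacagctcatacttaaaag
Ifit1: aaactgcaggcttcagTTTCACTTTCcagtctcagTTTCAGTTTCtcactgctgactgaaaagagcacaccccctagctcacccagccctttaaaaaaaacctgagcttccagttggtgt
Igtp: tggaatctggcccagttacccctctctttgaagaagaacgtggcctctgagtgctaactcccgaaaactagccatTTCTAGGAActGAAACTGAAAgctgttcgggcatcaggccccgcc

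Isg15 encodes a ubiquitin-like protein, Ifit1 a binder of foreign RNA and Igtp a GTPase induced by interferon gamma. Isg15 held 3 overlapping response elements in these bases, Ifit1 held 2, and Igtp held 1 response element and 1 gamma-activated site. In the wider window from 250 bases before to 50 after the start, the response element was found in 354 of 9993 genes tested here with a RefSeq promoter (3.54%). It was found in 12 of the 18 type I interferon genes with a promoter (66.7%) and in 8 of 17 interferon gamma genes (47.1%). The gamma-activated site was found in 805 of all 9993 (8.06%), in 3 of 18 and in 9 of 17 (52.9%). Among all 354 genes with the response element, 178 had a log2 difference above 0 between young heterochronic and young isochronic mice and 176 below it, with a median of 0.00. A match describes letters in a window and not a bound site.

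RNA sequencing of bulk tissue was deposited as a signal for each RefSeq transcript, namely reads divided by 1 factor for each library. The value worth 1 read was taken as the commonest value above 0. Depth is the sum of the values of 1 transcript for each gene, divided by that value. It was inferred from the deposited values and is not a count of sequenced or mapped reads. Depth was 675913, 760749 and 773403 reads in the young heterochronic libraries and 746494, 992000 and 907496 in the young isochronic ones. A single read was worth 1.16, 1.01 and 1.00 in young heterochronic libraries and 1.03, 0.783 and 0.825 in young isochronic libraries. High values are compressed: no gene reached more than 993 reads in any parabiont, and Ttr, the transthyretin gene, held 29.8% to 34.0% of all reads in unjoined choroid plexus. Genes near this ceiling therefore took values that follow the worth of 1 read. All 24 listed genes of choroid plexus epithelium were present, with Ttr the highest of all genes in each library.

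**Figure D1:**
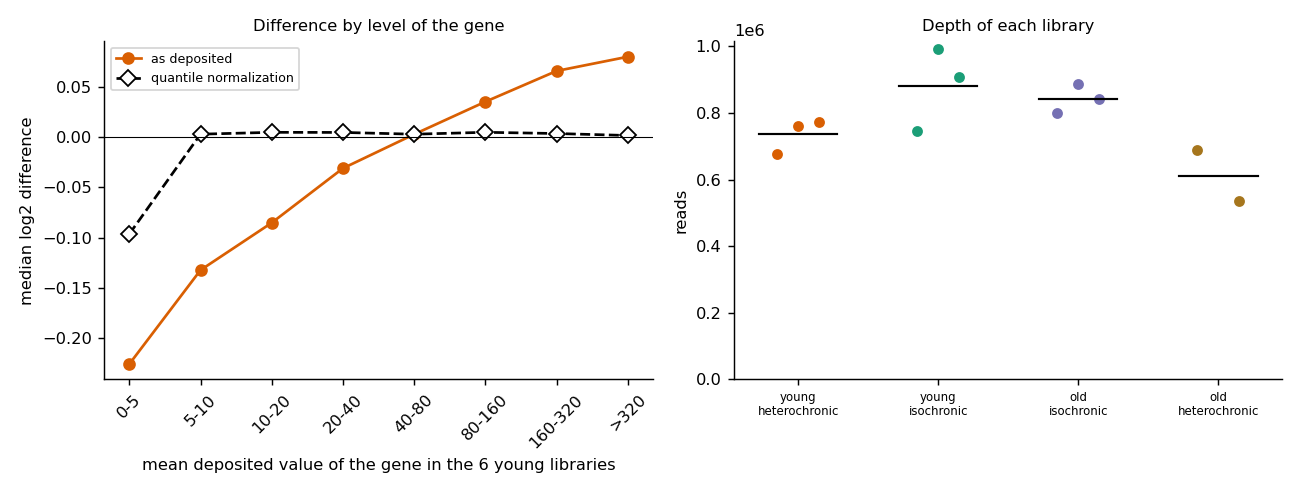
Left, median log2 difference (young heterochronic minus young isochronic, vertical axis) of the genes tested, by their mean deposited value in the 6 young libraries (horizontal axis), as deposited (circles) and after quantile normalization (diamonds). Right, reads inferred from the values (vertical axis) of each library of the 4 parabiosis groups, with bars at group means. The deposited medians run from -0.23 in the lowest genes to 0.08 in the highest.

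The level of a gene moved with its difference. The median log2 difference was -0.23 in the 501 genes with a mean value up to 5, -0.03 in the 2624 genes between 20 and 40, 0.07 in the 753 genes between 160 and 320 and 0.08 in the 52 genes above 320. After quantile normalization it was -0.10 in the lowest of these classes and 0.00 in the other named classes. Each gene list below is therefore given with both medians.

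No single gene passed the test between young heterochronic and young isochronic parabionts. With limma on log2 of the value plus 1 read, 0 of 12635 genes (0%) had a Benjamini-Hochberg adjusted p under 0.05. At an unadjusted p under 0.05 there were 816 genes (6.46%), of which 328 were higher (2.60%) and 488 lower (3.86%) with an old partner. These shares moved with level. Of the 1570 genes with mean values between 10 and 20, 22 were higher and 108 lower. Of the 753 genes between 160 and 320, 65 were higher and 1 lower. The shares of all genes given beside the lists below are not matched to level. With voom weights limma also called 0 genes, with 842 at an unadjusted p under 0.05, and after quantile normalization 0 genes, with 741. Libraries of the groups did not overlap in 631 genes that were higher (4.99%) and 701 that were lower (5.55%) in young heterochronic mice. The median log2 difference of all genes tested was 0.00, and 6390 lay above 0. Without young heterochronic animal 11, 6 genes passed, all lower: Podxl, Kdr, Ache, Fam174b, Cx3cr1 and Emilin1. No other left-out library gave a call.

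The 2 smallest p-values belonged to Cx3cr1 and Podxl, both lower with an old partner. Cx3cr1, the fractalkine receptor of microglia and macrophages, had 33.0, 33.7 and 20.4 in young heterochronic mice, against 57.9, 65.8 and 48.3 in young isochronic mice. The 2 sets of values did not overlap, and the log2 difference was -0.98 (SE 0.188, limma adjusted p = 0.126). Without animal 11 it was -1.10 with an adjusted p of 0.0275. With single libraries left out in turn, the limma adjusted p of Cx3cr1 ran from 0.0275 to 0.578. Trem2, a lipid-sensing receptor of the same cells, had 8.11, 5.03 and 5.98 in young heterochronic mice, against 20.6, 11.7 and 18.2 in young isochronic mice. Again no young heterochronic value reached the lowest young isochronic one, at a log2 difference of -1.26 (SE 0.305, limma adjusted p = 0.380).

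**Figure D2:**
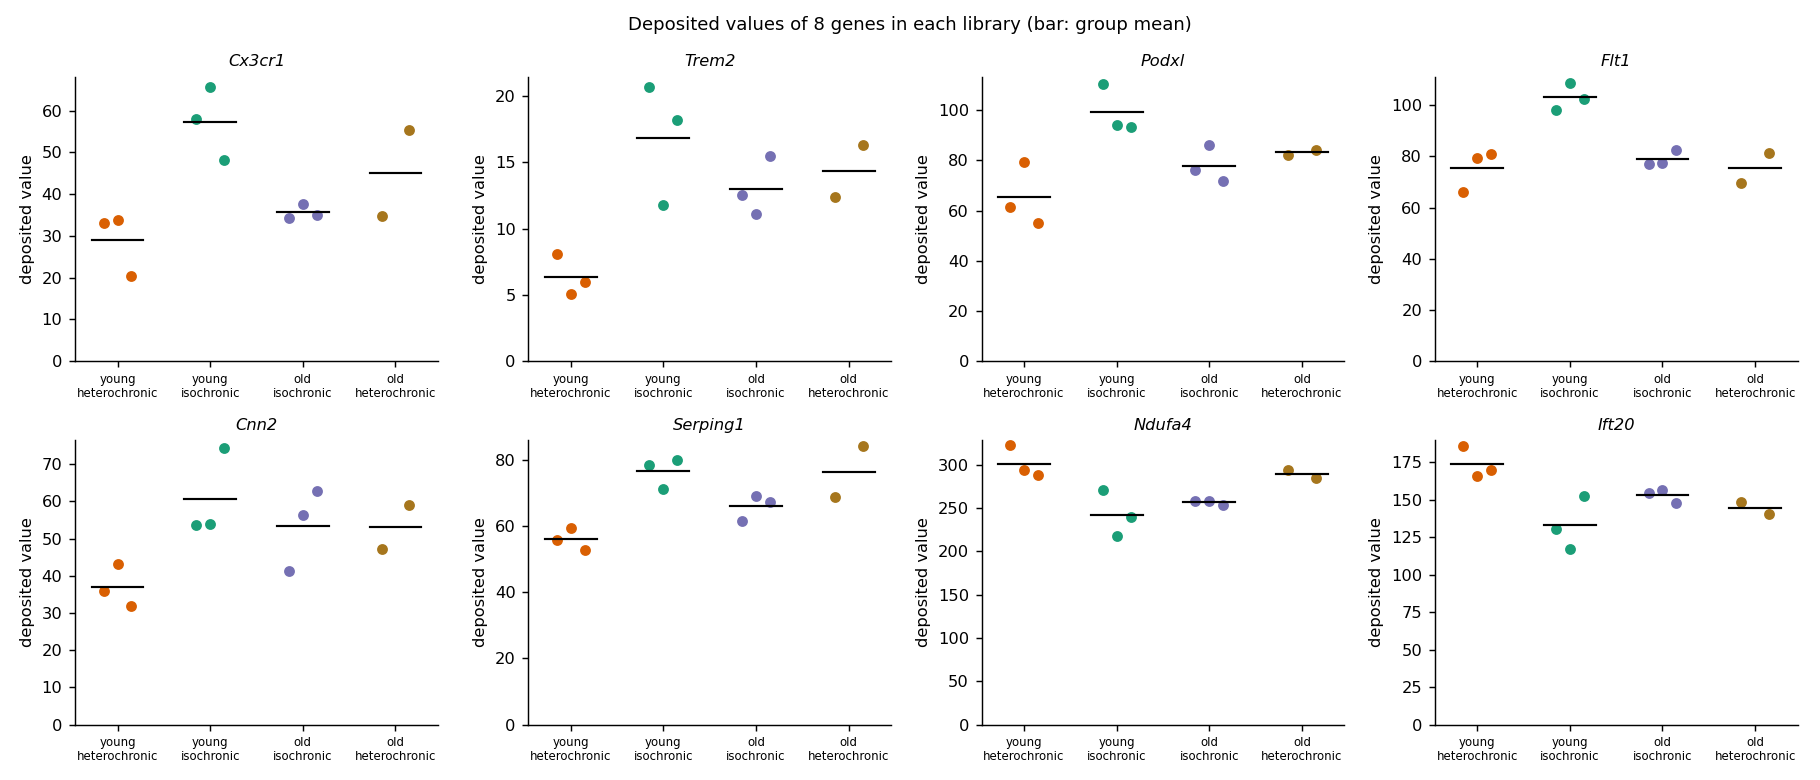
Deposited value (vertical axis, from 0) of 8 genes in each library of the 4 parabiosis groups, 1 point for each library and a bar at the group mean. In the 6 genes from Cx3cr1 to Serping1 the 3 young heterochronic points lie below the 3 young isochronic points, and in Ndufa4 and Ift20 above them.

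The 10 lower genes with the smallest p also include genes of the vessel wall. Podxl, the sialomucin podocalyxin of endothelial and epithelial surfaces, had 61.4, 79.5 and 54.9 in young heterochronic mice, against 110.4, 93.9 and 93.2 in young isochronic mice. Its groups did not overlap, and its log2 difference was -0.61 (SE 0.120, limma adjusted p = 0.126). Without animal 11 it was -0.76 with an adjusted p of 0.0131. With single libraries left out in turn, the limma adjusted p of Podxl ran from 0.0131 to 0.707. Flt1, the endothelial receptor 1 for VEGF, had 66.1, 79.5 and 80.8 in young heterochronic mice, against 98.0, 109 and 102 in young isochronic mice. Its log2 difference was -0.45 (SE 0.106), again without overlap. Cnn2, the actin-binding protein calponin 2, had 35.9, 43.3 and 31.9 in young heterochronic mice, against 53.6, 54.0 and 74.3 in young isochronic mice. Emilin1, a glycoprotein of elastic fibres, had 18.5, 30.2 and 14.96 in young heterochronic mice, against 49.5, 33.7 and 42.9 in young isochronic mice. In both the young heterochronic values were all the lower ones, with log2 differences of -0.69 and -0.99. Steap4, a metalloreductase, had 13.9, 23.2 and 17.0 in young heterochronic mice, against 38.2, 38.4 and 28.9 in young isochronic mice. Its log2 difference was -0.94, and Cnn2, Flt1, Steap4 and Trem2 share the same adjusted p of 0.380.

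The remaining lower genes among the 10 with the smallest p were Fam174b, Nipbl and Tmem221. Nipbl, the loader of cohesin onto chromatin, had 5.80, 7.05 and 9.97 in young heterochronic mice, against 16.5, 29.0 and 15.7 in young isochronic mice. Fam174b, which encodes a membrane protein, had 5.80, 17.1 and 7.98 in young heterochronic mice, against 26.8, 25.8 and 24.8 in young isochronic mice. Young heterochronic animal 11 was the highest of its group in Fam174b. Tmem221 had 19.7, 18.1 and 19.9 in young heterochronic mice, against 46.4, 32.9 and 24.8 in young isochronic mice. The log2 differences were -1.29 for Nipbl, -1.37 for Fam174b and -0.77 for Tmem221, with limma adjusted p-values of 0.455, 0.380 and 0.455.

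The 10 higher genes with the smallest p include 4 small subunits of mitochondrial oxidative phosphorylation. Atp5k, the e subunit of ATP synthase, had 181, 164 and 166 in young heterochronic mice, against 135, 107 and 137 in young isochronic mice. The groups did not overlap, with a log2 difference of 0.43 (SE 0.0971, limma adjusted p = 0.380). Ndufa4, a subunit of cytochrome c oxidase, had 323, 294 and 288 in young heterochronic mice, against 271, 217 and 239 in young isochronic mice. Ndufb2, a subunit of complex I, had 207, 193 and 201 in young heterochronic mice, against 174, 139 and 169.6 in young isochronic mice. Cox6c, another oxidase subunit, had 240.4, 220.5 and 224 in young heterochronic mice, against 211, 168 and 182 in young isochronic mice. In all 3 genes each young heterochronic value was above each young isochronic value, and the log2 differences were 0.32, 0.32 and 0.29. These are high values, which are compressed here. A single read was worth 1.16, 1.01 and 1.00 in young heterochronic libraries, against 1.03, 0.783 and 0.825 in young isochronic ones. How far this sets the lack of overlap was not tested. Ift20, a carrier of cargo in cilia, had 186, 166 and 170.1 in young heterochronic mice, against 130.5, 117 and 152 in young isochronic mice. Rps10, a protein of the small ribosomal subunit, had 134, 126 and 117 in young heterochronic mice, against 100.2, 92.6 and 109 in young isochronic mice. Neither gene's groups overlapped, at log2 differences of 0.39 and 0.32. Xrcc5, the DNA end-binding protein Ku80, and Rogdi had log2 differences of 0.35 and 0.28 without overlap, whereas the groups overlapped for Actn1, the actin cross-linker, and for 3110040N11Rik, at 0.33 and 0.81. None of these 10 passed, with limma adjusted p-values from 0.380 to 0.577.

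Levels of type I interferon response genes overlapped between both young groups. Of 32 listed genes 30 were in the table and 26 were tested. Of these 26, 9 had a log2 difference above 0 and 17 below it, the median was -0.07 (-0.01 after quantile normalization), and 2 were lower at an unadjusted p under 0.05, against 3.86% of all genes. The median was -0.15 without young isochronic animal 1, -0.12 without young heterochronic animal 9 and -0.0068 without young isochronic animal 5. Libraries did not overlap in 2 genes (7.7%), both lower, against 5.55% of all genes. The mean log2 level of the 26 genes was 4.26, 4.22 and 4.07 in the young heterochronic libraries, against 4.26, 4.21 and 4.41 in the young isochronic ones. It was 5.47, 5.35 and 5.38 in old isochronic and 5.65 and 4.79 in old heterochronic libraries, so all old libraries lay above all young ones. In 24 of the 26 genes each old isochronic value was above each young heterochronic value, against 6.32% of all genes tested. The same held for old heterochronic mice in 21 genes, against 10.9% of all genes.

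**Figure D3:**
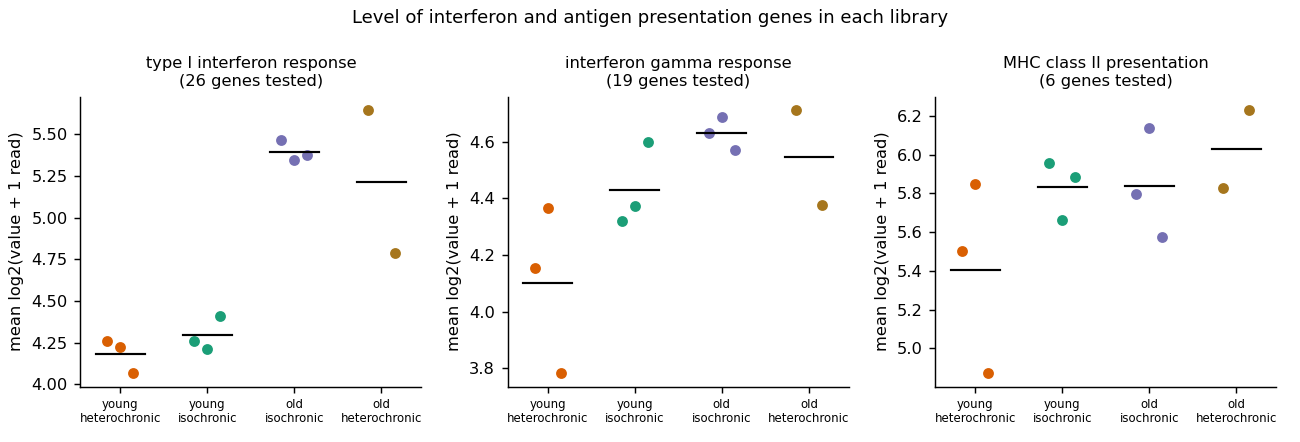
Mean log2(value + 1 read) of the tested genes of 3 lists (vertical axis) in each library of the 4 parabiosis groups, with bars at group means. For the type I interferon response the young heterochronic points (4.07 to 4.26) and the young isochronic points (4.21 to 4.41) overlap, and both lie below all 5 old libraries. The vertical axes do not start at 0.

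In 24 of the 26 genes the young groups overlapped. Isg15, whose promoter is shown above, had 18.5, 22.1 and 14.96 in young heterochronic mice, against 17.5, 13.7 and 12.5 in young isochronic mice. Its log2 difference was 0.33 (SE 0.334, 95% interval -0.38 to 1.03), while old isochronic mice had 47.7, 42.2 and 50.4 and old heterochronic mice 70.4 and 17.0. Ifit1 had 10.7, 8.56 and 7.48 in young heterochronic mice, against 7.37, 11.8 and 21.0 in young isochronic mice. The highest and the lowest value of Ifit1 were both in young isochronic mice, and the log2 difference was -0.44 (95% interval -1.07 to 0.19). Irf7, the transcription factor that amplifies type I interferon, had 30.1, 43.3 and 29.9 in young heterochronic mice, against 20.6, 17.2 and 30.5 in young isochronic mice. Young heterochronic animals 9 and 14 had less than young isochronic animal 5, and the log2 difference was 0.59 (95% interval -0.18 to 1.37, limma adjusted p = 0.865).

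The members with the smallest p were lower. Parp14, an ADP-ribosyltransferase, had 9.27, 9.06 and 5.98 in young heterochronic mice, against 17.5, 12.5 and 12.4 in young isochronic mice. Ifitm3, which blocks entry of viruses into the cell, had 104, 117 and 99.1 in young heterochronic mice, against 117, 137 and 116 in young isochronic mice. Only Parp14 showed no overlap, and the log2 differences were -0.74 and -0.21. Ddx58, the RNA sensor RIG-I, had 11.6, 13.1 and 7.98 in young heterochronic mice, against 12.4, 18.8 and 14.0 in young isochronic mice. Its values overlapped at a log2 difference of -0.44. The 95% interval of the difference ended below 1 on the log2 scale in 24 of the 26 genes. Values of unjoined choroid plexus lack the ceiling seen in parabionts. There 17 of the 26 genes had an age difference (aged minus young) above 1 on the log2 scale. In all 17 it was above the upper end of the interval found here. Choosing genes above 1 largely fixed this in advance, since 24 intervals end below 1, so nothing is concluded from it.

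Interferon gamma genes lay lower in young heterochronic mice, with 1 library far below the others. Of 24 genes 19 were tested, 2 had a log2 difference above 0 and 17 below it, and the median was -0.39 (-0.29 after quantile normalization). At an unadjusted p under 0.05 6 were lower and 0 higher, against 3.86% and 2.60% of all genes, and libraries did not overlap in 5 (26.3%), all lower, against 5.55% of all genes. The mean log2 level was 4.15, 4.37 and 3.78 in young heterochronic animals 9, 11 and 14, against 4.32, 4.37 and 4.60 in young isochronic animals 1, 3 and 5. Without young heterochronic animal 14 the median was -0.21, and without young isochronic animal 5 it was -0.20. Animal 14 was also the lowest in macrophage and microglia markers, of which all 19 tested lay below 0. The summed value of these 19 was 318, 325 and 196 in young heterochronic animals 9, 11 and 14, against 443, 381 and 398 in young isochronic animals 1, 3 and 5. Their part in the result was not tested, here or for the class II genes that follow. Igtp, the third gene with a promoter shown above, had 20.9, 20.1 and 12.97 in young heterochronic mice, against 22.7, 29.0 and 26.4 in young isochronic mice. Iigp1, a GTPase of the same family, had 10.4, 14.1 and 4.49 in young heterochronic mice, against 14.4, 27.0 and 19.8 in young isochronic mice. Neither pair of groups overlapped, at log2 differences of -0.53 and -1.08 (limma adjusted p = 0.7005 and 0.699). Irgm1, a regulator of these GTPases, had 26.7, 22.3 and 23.4 in young heterochronic mice, against 37.1, 36.3 and 27.2 in young isochronic mice. Psmb8, a subunit of the immunoproteasome, had 23.2, 27.2 and 25.9 in young heterochronic mice, against 38.2, 30.5 and 35.5 in young isochronic mice. Their log2 differences were -0.45 and -0.43, without overlap. The receptor subunit Ifngr1 had 38.3, 52.3 and 49.9 in young heterochronic mice, against 55.7, 48.5 and 40.4 in young isochronic mice, at a log2 difference of -0.04.

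Genes of MHC class II, which present antigen taken up by macrophages and dendritic cells, showed the same animal at the low end. Of 6 tested MHC class II genes 5 lay below 0, with a median of -0.50 both as deposited and after quantile normalization, and of -0.17 without young heterochronic animal 14. H2-Ab1, a class II beta chain, had 38.3, 58.4 and 25.9 in young heterochronic mice, against 68.1, 54.0 and 56.1 in young isochronic mice. Cd74, the invariant chain, had 81.1, 95.6 and 60.8 in young heterochronic mice, against 118, 96.3 and 99.0 in young isochronic mice. H2-Aa, a class II alpha chain, had 54.5, 79.5 and 29.9 in young heterochronic mice, against 85.6, 72.0 and 82.5 in young isochronic mice. Animal 14 had the lowest value in all 3 genes, and only Cd74 showed no overlap. The log2 differences were -0.60, -0.41 and -0.64, with limma adjusted p-values of 0.693, 0.674 and 0.812. H2-Eb1 had a log2 difference of -0.67. Of 15 tested MHC class I genes 4 lay above 0 and 11 below it, with a median of -0.08 (-0.10 after quantile normalization), of -0.14 without young heterochronic animal 11 and of 0.0014 without young isochronic animal 1. Their mean log2 level was 5.54, 5.58 and 5.54 in young heterochronic animals 9, 11 and 14, against 5.75, 5.64 and 5.75 in young isochronic animals 1, 3 and 5, so animal 14 did not stand apart here. The class I levels of the young groups did not overlap. Libraries did not overlap in 3 class I genes (20%), all lower, against 5.55% of all genes. At an unadjusted p under 0.05 3 were lower and 1 higher, against 3.86% and 2.60% of all genes. The class I members with the smallest p include H2-M3, a nonclassical heavy chain, at -0.75, and the proteasome activator Psme1, at 0.22. They also include the proteasome subunits Psmb8 and Psmb9, at -0.43 and -0.57. Psmb8 and Psmb9 belong to the interferon gamma list as well, so the counts of both lists are not separate observations.

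Chemokines, which draw leukocytes, were mostly too low to be tested. Of 25 genes 24 were in the table and only 10 were tested. Ccl11, the eotaxin, was listed at 0 in all 3 young heterochronic mice and in young isochronic animals 3 and 5, and at 1.03, or 1 read, in animal 1. Ccl17 had 0, 4.03 and 3.99 in young heterochronic mice, against 1.03, 0.783 and 2.48 in young isochronic mice. Cxcl10 had 2.32, 2.01 and 0.997 in young heterochronic mice, against 1.03, 3.13 and 5.78 in young isochronic mice, and neither was tested. Ccl2, which draws monocytes, had 3.48, 3.02 and 0.997 in young heterochronic mice, against 3.09, 2.35 and 8.25 in young isochronic mice. Its values overlapped at a log2 difference of -0.61. The 10 tested chemokines had a median of -0.47 (-0.40 after quantile normalization), with 1 above 0; it was -0.29 without young heterochronic animal 14 and -0.14 without young isochronic animal 5. Ccl12, another ligand of the monocyte receptor CCR2, had 2.32, 1.01 and 0 in young heterochronic mice, against 3.09, 5.48 and 9.90 in young isochronic mice. Cxcl16, a membrane-bound chemokine, had 18.5, 29.2 and 20.9 in young heterochronic mice, against 39.2, 30.5 and 28.1 in young isochronic mice. Cxcl12, which retains stem and immune cells, had 63.8, 83.6 and 29.9 in young heterochronic mice, against 86.6, 79.9 and 78.4 in young isochronic mice. Only Ccl12 showed no overlap, at a log2 difference of -1.82, a value set by few reads. Cxcl16 had -0.50 and Cxcl12 -0.58.

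Adhesion molecules, by which leukocytes leave the blood, had a median of -0.18 over 13 tested genes (-0.15 after quantile normalization). Icam1 and Vcam1 bind integrins of leukocytes. Icam1 had 23.2, 23.2 and 22.9 in young heterochronic mice, against 34.0, 14.9 and 32.2 in young isochronic mice. Vcam1 had 192, 186 and 155 in young heterochronic mice, against 176, 169.9 and 158 in young isochronic mice. Both overlapped, at log2 differences of -0.13 and 0.08, and Icam1 turned to 0.07 without young isochronic animal 1. Icam2, of resting endothelium, had 10.4, 14.1 and 8.98 in young heterochronic mice, against 19.6, 17.2 and 27.2 in young isochronic mice. Here the groups did not overlap, at a log2 difference of -0.87 (SE 0.267, limma adjusted p = 0.569). Nt5e, the ectoenzyme CD73, was at -0.30, Cd34 at -0.36 and F11r, a junctional adhesion molecule, at 0.11. Without young isochronic animal 3 the median of the 13 was -0.34, and without young isochronic animal 5 it was -0.11.

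All tested markers of macrophages and microglia lay below 0. Of 21 markers 19 were tested, and the log2 differences ran from -1.33 to -0.11 with a median of -0.57 (-0.49 after quantile normalization). At an unadjusted p under 0.05 7 were lower, against 3.86% of all genes, and libraries did not overlap in 5 (26.3%), all lower, against 5.55% of all genes. Averaged over the 19 markers, the log2 level was 3.50, 3.59 and 2.86 in young heterochronic animals 9, 11 and 14, against 4.06, 3.90 and 4.01 in young isochronic animals 1, 3 and 5. Old isochronic libraries had 3.62, 3.84 and 3.63, below all young isochronic ones, and old heterochronic libraries 3.53 and 4.06. In bulk tissue fewer cells of a type and less RNA per cell cannot be told apart. Without animal 14 the median was -0.29, and without animal 11 it was -0.80. Pf4, a chemokine made by border macrophages and platelets, had 9.27, 8.05 and 1.99 in young heterochronic mice, against 14.4, 13.3 and 19.0 in young isochronic mice. Adgre1, the macrophage antigen F4/80, had 2.32, 6.04 and 1.99 in young heterochronic mice, against 9.28, 7.83 and 4.95 in young isochronic mice. Pf4 did not overlap and Adgre1 did, at log2 differences of -1.33 and -0.98. Lyz2, lysozyme, had 73.6, 72.5 and 41.4 in young heterochronic mice, against 96.9, 82.2 and 72.6 in young isochronic mice. Csf1r, the receptor that macrophages need to survive, had 37.1, 40.3 and 27.9 in young heterochronic mice, against 46.4, 36.8 and 45.4 in young isochronic mice. Both overlapped, at -0.46 and -0.29.

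Complement genes, which several of these cells make, were also mostly below 0. Of 13 tested genes 12 lay below 0, with a median of -0.22 (-0.23 after quantile normalization). Serping1, the C1 inhibitor, had 55.6, 59.4 and 52.9 in young heterochronic mice, against 78.4, 71.2 and 80.04 in young isochronic mice. Its groups did not overlap, at a log2 difference of -0.44 (SE 0.115, limma adjusted p = 0.475). C1s1, the C1s protease, had 12.8, 21.6 and 14.96 in young heterochronic mice, against 26.8, 24.7 and 22.7 in young isochronic mice. No overlap was seen for C1s1 either, at -0.59, whereas C1qb, a chain of C1q, and Cd55, which dissolves convertases, overlapped at -0.30 and -0.22.

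**Figure D4:**
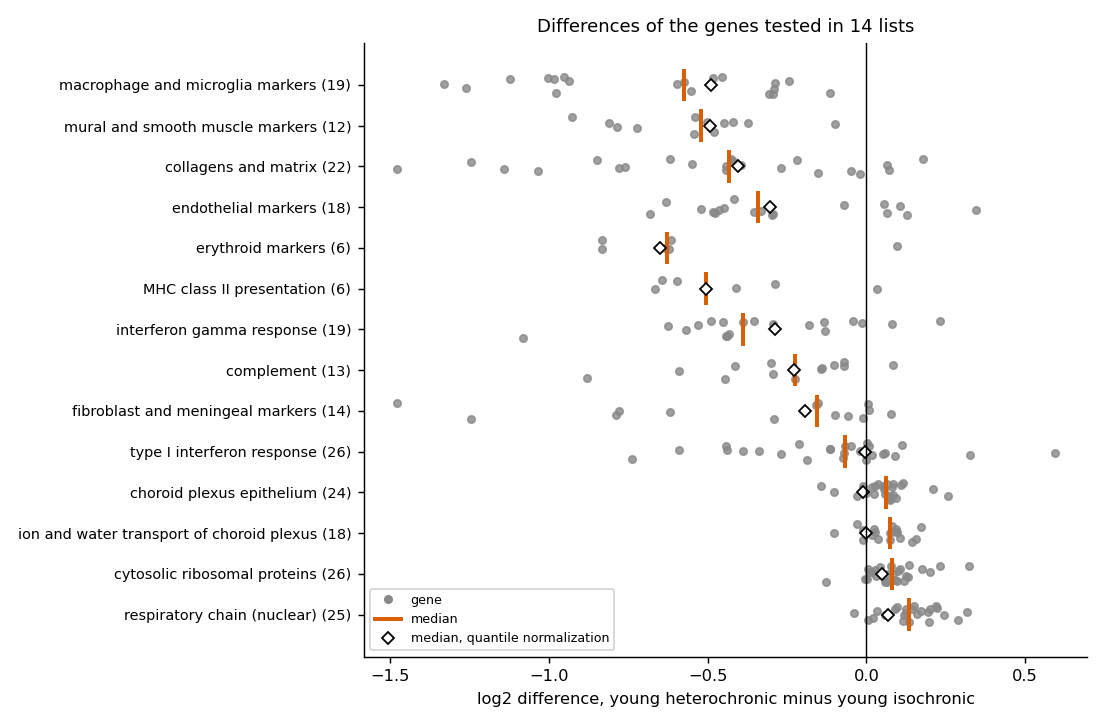
Log2 difference of each tested gene (young heterochronic minus young isochronic, horizontal axis) in 14 lists (vertical axis, number tested in brackets). Grey points are genes, orange bars their median and open diamonds the median after quantile normalization. All points of the macrophage and mural lists lie below 0, and 24 of 25 respiratory chain genes above 0.

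Most endothelial markers lay below 0. Of 18 tested, 13 lay below 0, 8 at an unadjusted p under 0.05 (3.86% of all genes), with a median of -0.34 (-0.30 after quantile normalization). Libraries did not overlap in 7 lower genes (38.9%) and in 1 higher gene (5.56%), against 5.55% and 4.99% of all genes. Over the 18 genes the mean log2 level was 4.91, 5.01 and 4.94 in young heterochronic libraries, against 5.27, 5.15 and 5.24 in young isochronic ones. Old isochronic libraries had 4.83, 4.95 and 5.01, below all young isochronic ones, and old heterochronic libraries 4.68 and 5.18. Kdr, the main VEGF receptor of endothelium, had 68.4, 92.6 and 55.9 in young heterochronic mice, against 96.9, 104 and 95.7 in young isochronic mice. Its groups did not overlap, at a log2 difference of -0.48 (SE 0.126, limma adjusted p = 0.492). Without animal 11 it was -0.67 with an adjusted p of 0.025. Kdr passed with no other library left out. Plvap, which forms the diaphragms of fenestrated capillaries, had 47.5, 64.4 and 45.9 in young heterochronic mice, against 87.7, 64.2 and 75.1 in young isochronic mice. Esm1, a proteoglycan of sprouting vessels, had 22.0, 21.1 and 19.9 in young heterochronic mice, against 33.0, 35.2 and 34.7 in young isochronic mice. Only Esm1 of the pair showed no overlap, at -0.68, with Plvap at -0.52. The junction proteins Pecam1 and Cldn5 were at 0.13 and 0.10, and Cdh5, the cadherin of endothelium, at -0.46.

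Markers of mural cells, the pericytes and smooth muscle around capillaries and arterioles, lay below 0 throughout. All 12 markers were tested and all 12 lay below 0, 8 at an unadjusted p under 0.05 (3.86% of all genes), with a median of -0.52 (-0.49 after quantile normalization). Libraries did not overlap in 7 (58.3%), all lower, against 5.55% of all genes. The mean log2 level was 4.44, 4.52 and 4.19 in young heterochronic libraries, against 5.04, 4.83 and 4.94 in young isochronic ones, and the median stayed between -0.58 and -0.46 whichever young library was left out. Myl9, a light chain of smooth muscle myosin, had 53.3, 46.3 and 35.9 in young heterochronic mice, against 68.1, 59.5 and 63.5 in young isochronic mice. Des, the intermediate filament desmin, had 29.0, 38.3 and 37.9 in young heterochronic mice, against 54.7, 51.7 and 47.0 in young isochronic mice. Kcnj8, a potassium channel of pericytes, had 9.27, 10.1 and 8.98 in young heterochronic mice, against 17.5, 13.3 and 18.2 in young isochronic mice. None of the 3 overlapped, at log2 differences of -0.50, -0.54 and -0.72 (limma adjusted p = 0.537, 0.644 and 0.699). Abcc9, the partner subunit of that channel, had -0.93 without overlap, and Pdgfrb, the receptor by which endothelium recruits pericytes, -0.45. Old isochronic libraries had mean levels of 4.44, 4.57 and 4.74 and old heterochronic ones 4.50 and 4.76, below all 3 young isochronic libraries.

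Most collagens and other matrix genes lay below 0 too. Of 22 tested, 19 lay below 0, 11 at an unadjusted p under 0.05 (3.86% of all genes). The median was -0.43 (-0.41 after quantile normalization). Libraries did not overlap in 10 (45.5%), all lower, against 5.55% of all genes. The mean log2 level was 4.99, 5.02 and 4.57 in young heterochronic and 5.41, 5.26 and 5.41 in young isochronic libraries. Old isochronic libraries had 4.89, 5.10 and 4.78, below all young isochronic ones, and old heterochronic libraries 4.85 and 5.18. Col15a1, a collagen of basement membranes, had 6.96, 15.1 and 6.98 in young heterochronic mice, against 34.0, 14.1 and 19.8 in young isochronic mice. Nid1, which links laminin to collagen IV, had 20.9, 19.1 and 8.98 in young heterochronic mice, against 30.9, 28.2 and 26.4 in young isochronic mice. Col1a1, the main fibrillar collagen chain, had 23.2, 18.1 and 8.98 in young heterochronic mice, against 25.8, 27.4 and 29.7 in young isochronic mice. Col15a1 overlapped by 1 library, and the log2 differences were -1.14, -0.85 and -0.78. Col6a2, the collagen VI chain, had 3.48, 2.01 and 0.997 in young heterochronic mice, against 6.19, 7.05 and 9.08 in young isochronic mice. Its log2 difference of -1.48, the lowest of the list, rests on few reads. The filter asked for 5 reads in 3 of 11 libraries, so the young isochronic libraries alone could admit a gene. Col6a2 counts among the 22 tested, the 19 below 0 and the 10 without overlap. Of the fibroblast and meningeal markers 14 were tested, 11 lay below 0 and the median was -0.16 (-0.19 after quantile normalization, -0.24 without young isochronic animal 3); 4 of the 5 most shifted are collagens, and Foxc1, a transcription factor of meninges and mesenchyme, had -0.79. The fibroblast markers Dcn, Lum and Pdgfra were at -0.16, -0.29 and 0.08.

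Globin transcripts, a sign of red blood cells left in the tissue, differed as well. Hbb-bs, adult beta globin, had 61.4, 62.9 and 72.3 in young heterochronic mice, against 83.0, 93.7 and 137 in young isochronic mice. Hba-a1, adult alpha globin, had 47.1, 55.5 and 60.4 in young heterochronic mice, against 63.8, 85.1 and 107 in young isochronic mice. The groups did not overlap in either, at log2 differences of -0.63 and -0.62. Hbb-b2 and Hbb-bt, with identical values, and Hba-a2, nearly the same as Hba-a1, share their reads and are not separate observations. The median of the 6 erythroid genes tested was -0.63 (-0.65 after quantile normalization) and -0.44 without young isochronic animal 5. Their mean log2 level was 5.55, 5.80 and 5.97 in young heterochronic and 6.00, 6.32 and 6.72 in young isochronic libraries. Old isochronic libraries had 5.89, 5.82 and 5.62, below all young isochronic ones, and old heterochronic libraries 5.41 and 6.47. How far residual blood bears on the lower endothelial, macrophage and mural values was not tested.

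Epithelial markers lay on either side of 0, depending on the scaling. All 24 markers were tested, and 19 lay above 0 as deposited with a median of 0.06, but 5 after quantile normalization with a median of -0.01. The deposited median was -0.0042 without young heterochronic animal 9, -0.029 without young isochronic animal 5 and 0.11 without young isochronic animal 1. Ttr, the carrier of thyroid hormone and retinol, had 1065, 944 and 919 in young heterochronic mice, against 965, 777 and 796 in young isochronic mice. Its log2 difference was 0.21 as deposited and 0.00 after quantile normalization, and in reads the ceiling held it at 918.8 to 937.6 in young heterochronic and 935.8 to 993 in young isochronic libraries. Enpp2, autotaxin, had 798, 664 and 660.3 in young heterochronic mice, against 679, 553 and 545 in young isochronic mice. It had a log2 difference of 0.26, or 0.11 after quantile normalization. Kl, the hormone co-receptor klotho, had 532, 486 and 448 in young heterochronic mice, against 506, 466 and 428 in young isochronic mice. Folr1, which carries folate into the fluid, had 418, 357 and 376 in young heterochronic mice, against 381, 398 and 319 in young isochronic mice. Aqp1, the water channel, had 284, 256 and 252 in young heterochronic mice, against 283, 285 and 216 in young isochronic mice. The log2 differences of these 3 were 0.07, 0.07 and 0.02, all overlapping. Lmx1a, a transcription factor of choroid plexus fate, had 110.1, 122 and 117 in young heterochronic mice, against 131, 131 and 123 in young isochronic mice. This gene did not overlap, at -0.14 (limma adjusted p = 0.866).

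Transporters, secreted proteins and junctions of the epithelium gave medians near 0. The 18 tested genes of ion and water transport had a median of 0.08 (0.00 after quantile normalization), with Slc12a2, the sodium, potassium and chloride cotransporter, at 0.17 and Car14, a carbonic anhydrase, at 0.16. The 23 tested secreted carriers and hormones had a median of 0.06 (-0.02 after quantile normalization). Cp, ceruloplasmin, which oxidizes iron, had 38.3, 46.3 and 39.9 in young heterochronic mice, against 54.7, 67.3 and 59.4 in young isochronic mice. Serpinf1, a neurotrophic and antiangiogenic serpin, had 35.9, 31.2 and 28.9 in young heterochronic mice, against 52.6, 39.9 and 40.4 in young isochronic mice. Neither overlapped, at log2 differences of -0.53 and -0.45 (SE 0.148 and 0.164, limma adjusted p = 0.537 and 0.674). Without young heterochronic animal 9 these medians were 0.0022 for transport and -0.012 for secreted proteins, and without young isochronic animal 5 they were 0.0043 and -0.032; without young isochronic animal 1 that of transport was 0.13. The 15 tested tight junction genes had a median of -0.05 (-0.04 after quantile normalization), which was 0.0089 without young heterochronic animal 9, 0.065 without young isochronic animal 1 and -0.11 without young isochronic animal 5, and the epithelial claudins Cldn2 and Cldn3 were at -0.05 and -0.01. Cldn11, a claudin also of myelin and meninges, was the lowest at -0.58.

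Trophic factors had a median of -0.13 over 19 tested genes (-0.14 after quantile normalization) and of -0.01 without young heterochronic animal 14. Values of bulk tissue do not show which cells make them. Igf1, insulin-like growth factor 1, had 6.96, 6.04 and 6.98 in young heterochronic mice, against 9.28, 5.48 and 14.0 in young isochronic mice. Igf1 overlapped at a log2 difference of -0.39, and Bdnf was listed at no more than 1 read in any of the 6 libraries and was not tested. Tgfb1, transforming growth factor beta 1, had 6.96, 9.06 and 12.97 in young heterochronic mice, against 20.6, 18.0 and 16.5 in young isochronic mice. The groups did not overlap, at -0.90 (SE 0.277, limma adjusted p = 0.577). Mdk, midkine, was at -0.27, Pdgfa, a platelet-derived growth factor chain, at 0.17 and Bmp4, a bone morphogenetic protein, at 0.29. Ccnd2, cyclin D2, was at 0.08 as deposited and 0.00 after quantile normalization.

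Respiratory chain genes were shifted the other way by a small amount. Of 25 tested, 24 lay above 0 (21 after quantile normalization), 8 at an unadjusted p under 0.05 (2.60% of all genes), with a median of 0.14 (0.07 after quantile normalization). Libraries did not overlap in 9 (36%), all higher, against 4.99% of all genes. Averaged over the 25 genes, the log2 level was 7.78, 7.62 and 7.67 in young heterochronic libraries, against 7.56, 7.60 and 7.49 in young isochronic ones, and without animal 9 the median was 0.09. Ndufb3, a further subunit of complex I, had 161, 144 and 152 in young heterochronic mice, against 123, 139.7 and 124 in young isochronic mice. Its log2 difference was 0.25 without overlap, and Ndufa2, of the same complex, had 0.22. Of 26 cytosolic ribosomal protein genes 24 lay above 0, with a median of 0.08 (0.05 after quantile normalization), of 0.016 without young heterochronic animal 9 and of 0.035 without young isochronic animal 5. Rps19 and Rps14, of the small subunit, were at 0.32 and 0.23, and Rpl18, of the large subunit, at 0.20. Both lists hold genes of high values, and the median of all genes was 0.04 between values of 80 and 160 and 0.07 between 160 and 320. At an unadjusted p under 0.05, 105 of 2499 genes were higher in the first of these classes and 65 of 753 in the second.

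Markers of T and NK cells were too low to be tested. Of 15 T and NK cell markers 13 were in the table and none had enough reads to be tested, and Cd8a was listed at 0 in all 6 libraries. Of 17 neuron markers 8 were tested, with a median of -0.42 (-0.32 after quantile normalization). The mean log2 level of those 8 was 3.53, 3.25 and 3.13 in young heterochronic and 4.27, 3.19 and 3.48 in young isochronic libraries, with animal 1 the highest. The median of the neuron markers was -0.11 without young isochronic animal 1 and -0.12 without young heterochronic animal 14. The 11 astrocyte markers, all tested, had a median of -0.26 (-0.21 after quantile normalization), which was -0.08 without young heterochronic animal 14 and -0.48 without young heterochronic animal 9. Their summed value was 641 to 737 in young heterochronic and 612 to 677 in young isochronic libraries. The 19 tested genes of motile cilia had a median of 0.00 (0.03 after quantile normalization), or 0.02 to 0.07 with 1 young heterochronic library left out.

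An old against a young partner can also be compared in old recipients, where no library is shared with the young mice. There the difference is old isochronic minus old heterochronic. The labels do not say whether any of the young and old heterochronic mice were joined to each other. The comparisons in young and old recipients may therefore not be independent. The test of the difference between young and old recipients called 0 of 12635 genes (0%) with limma, and 1141 genes (9.03%) had an unadjusted p under 0.05, or 696 after quantile normalization with 0 called. Old isochronic libraries held 799608, 886349 and 843124 reads and old heterochronic ones 687909 and 534663. The median difference between recipients ran from -0.39 in the lowest class of level to 0.33 in the highest, or -0.17 and -0.01 after quantile normalization. Nipbl, named above, had 15.4, 15.3 and 12.7 in old isochronic and 9.00 and 4.44 in old heterochronic mice. Its log2 difference was -1.29 in young and 1.07 in old recipients, the difference between them -2.35 (limma adjusted p = 0.350). Enpp2 had 652, 574 and 597 in old isochronic and 731 and 938 in old heterochronic mice, with log2 differences of 0.26 in young and -0.45 in old recipients. The difference for Enpp2 was 0.71 (limma adjusted p = 0.350), and 0.81 with an adjusted p of 0.0349 without young isochronic animal 1. Enpp2 is a high gene, and high values are compressed here. A single read was worth 0.961, 0.852 and 0.909 in old isochronic and 1.13 and 1.48 in old heterochronic libraries. The Enpp2 values of these old libraries rank in the same order. How far the worth of 1 read sets the difference was not tested. Tuba1a, an alpha tubulin, and Cst3, cystatin C, differed by 0.62 and 0.53, and Scaf4, which helps end transcription, and Phf2, a histone demethylase, by -1.10 and -0.93, without a call. For Cx3cr1 and Podxl old isochronic minus old heterochronic gave -0.30 and -0.10, against -0.98 and -0.61 in young mice.

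**Figure D5:**
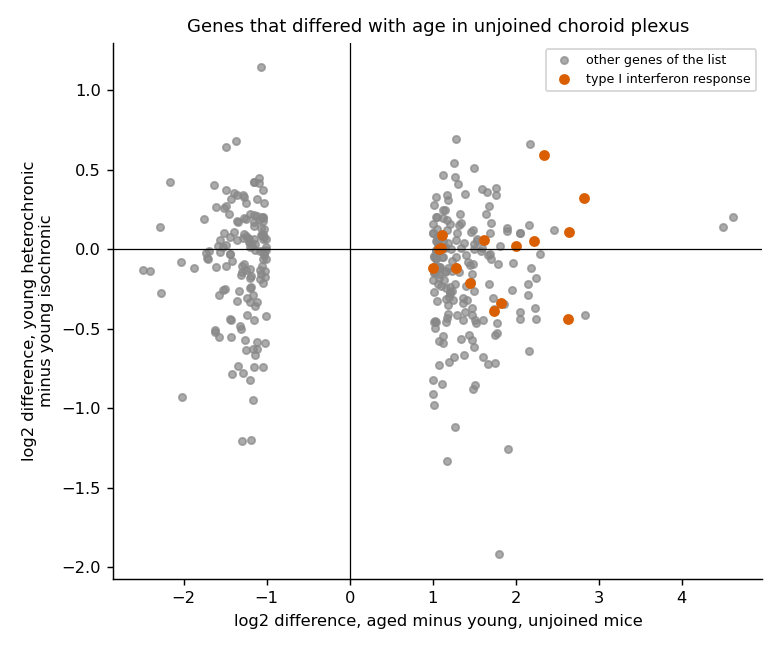
Log2 difference between young heterochronic and young isochronic parabionts (vertical axis) against the log2 difference between aged and young unjoined mice (horizontal axis), 1 point for each of the 201 genes higher and 145 lower in unjoined aged mice. Genes of the type I interferon response, in orange, spread around 0 on the vertical axis. By the choice of genes they lie 1 or more away from 0 on the horizontal one, and all 15 lie on its positive side.

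Genes that differed with age in unjoined mice had small medians between the young parabionts. Genes were listed where unjoined aged and young choroid plexus did not overlap and differed by 1 or more on the log2 scale. Of 201 genes higher in unjoined aged mice, 75 lay above 0 in young heterochronic against young isochronic mice and 126 below, with a median of -0.11 (-0.05 after quantile normalization, -0.035 without young isochronic animal 5). Of 145 genes lower in unjoined aged mice, 67 lay above 0 and 78 below, with a median of -0.01 (0.03 after quantile normalization). The median of all genes tested was 0.00. Among the 201 genes, libraries did not overlap in 5 higher (2.49%) and 23 lower genes (11.4%). Among the 145 genes they did not overlap in 4 higher (2.76%) and 14 lower genes (9.66%), so both lists leaned the same way. The shares of all genes were 4.99% and 5.55%. Of the 201 genes, 15 belong to the type I interferon response. Cx3cr1 is one of the 201: unjoined aged mice had 32.0, 14.7 and 12.3, against 9.48, 6.90 and 8.78 in unjoined young mice, while its values under an old partner were the lower ones.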

How the data were processed

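RNA of whole choroid plexus was sequenced from each parabiont, 1 library for each animal. The submitters' processing notes name TopHat as a tool and mm9 as the genome build. How reads were counted, whether duplicates were removed and what the scaling factor is were not given in the sources used here. Signal values deposited by the authors were taken as they are; judged from the values, they hold reads for each RefSeq transcript divided by 1 factor for each library. Of the values above 0 in a parabiont, 85.3% to 86.8% lay within 0.001 of a whole multiple of the value worth 1 read, so whole counts were not recovered and no count model was used.

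Each of 16954 genes is represented by 1 of its transcripts, the one whose mean was highest, from 21781 in all. Genes with at least 5 reads in at least 3 of the 11 parabiosis libraries were tested, 12635 in all. All 4 groups were fitted together with limma 3.58.1 in R 4.3.3, as robust empirical Bayes with a trend, on log2(value + 0.997), where 0.997 is the worth of 1 read. Fold changes on this scale understate those of low genes. The threshold was a Benjamini-Hochberg adjusted p of 0.05 over all genes tested, and 95% intervals come from the same fit. The procedure was also run on simulated libraries, with changes added to genes with a mean of at least 10. These libraries were given neither the ceiling nor the shift with level, so its behaviour under these was not tested. From the table of unjoined tissues, 58 columns were not used.

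Genes named are the 10 higher and 10 lower with the smallest p and a mean of at least 10, up to 4 members of each described list by p, the 5 in each direction for the difference between recipients, fixed cell type markers and 18 genes always named. Any other gene was chosen after its values were seen. The members and the 46 gene lists were chosen with earlier results of these data known. Alternatives were another pseudocount, no filter, quantile and median-of-ratios scaling, no trend, voom weights, summed transcripts, a fit of the 6 young libraries and leaving out each library.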

Additional observations from a re-analysis of the deposited data

How the results depend on the processing

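The count of 0 genes called between young heterochronic and young isochronic mice was the same under both other pseudocounts, no filter, quantile and median-of-ratios scaling, no trend, voom weights, summed transcripts and a fit of the 6 young libraries, and with unadjusted p under 0.05 there were 653 to 1053 genes under these settings. Leaving out 1 library gave 0 to 6 calls, the 6 without young heterochronic animal 11. For the difference between recipients, no trend gave 1 call (Pebp4, -1.95) and leaving out 1 library gave 0 to 2 calls, the 2 without young isochronic animal 1 being Enpp2 and Prpf38b (0.81 and -1.07). The median of genes higher in unjoined aged mice lay between -0.127 and -0.035 when 1 library was left out and was -0.034 for the 422 genes with a difference of at least 0.58. That of genes lower in unjoined aged mice lay between -0.06 and 0.02.

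After quantile normalization Ttr was at 0 and Ccnd2, Folr1 and Aqp1 had log2 differences of -0.0019, -0.0030 and -0.047. With 1 library left out, values of either sign were found for Icam1 (-0.501 to 0.070), Ifngr1 (-0.161 to 0.094), Folr1 (-0.023 to 0.137) and Aqp1 (-0.106 to 0.093). The cause was not tested. No paired analysis was possible because the numbers of the parabionts name animals and are not shared between the groups.

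Depth of 534663 to 992000 reads limits low genes, for which 1 read is a large step; the ceiling of 993 reads limits high ones, so the difference of Ttr follows the worth of 1 read. With 3 libraries in each group, differences that did not pass are not shown to be absent.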

Other observations

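Some gene groups outside the comparisons above had single members with differences between young heterochronic and young isochronic mice, none of which passed. Elane, the neutrophil elastase gene, had 69.7, 63.1 and 66.2 in young heterochronic mice, against 59.5, 50.4 and 50.7 in young isochronic mice, a log2 difference of 0.31 without overlap. The neutrophil genes S100a8 and S100a9, alarmins, were at 0.13 and -0.08. Heat shock genes had a median of 0.04 over 14 tested members, 9 of them above 0 (-0.02 after quantile normalization). Of 19 circadian clock genes 9 lay above 0, with a median of -0.03 (0.02 after quantile normalization). Of 17 tested immediate early genes 12 lay below 0, with a median of -0.16 (-0.13 after quantile normalization).

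Of 19 tested genes of cholesterol and lipid synthesis 15 lay above 0, with a median of 0.09 (0.06 after quantile normalization). Of 19 tested endoplasmic reticulum chaperones and stress genes 14 lay below 0, with a median of -0.07 (-0.12 after quantile normalization). With 1 library left out the medians ran from -0.039 (without young isochronic animal 1) to 0.0996 (without young isochronic animal 3) for heat shock genes and from -0.047 (without young isochronic animal 3) to 0.071 (without young isochronic animal 1) for clock genes. They ran from -0.24 (without young isochronic animal 3) to -0.045 (without young isochronic animal 5) for immediate early genes. They ran from 0.042 (without young heterochronic animal 9) to 0.12 (without young isochronic animal 5) for cholesterol and lipid synthesis, and from -0.15 (without young heterochronic animal 9) to 0.049 (without young heterochronic animal 14) for chaperones and stress genes.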
